A study of Mus musculus with 6 samples.

Results

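The 33 genes described here are markers of macrophages and microglia, the resident phagocytes of mouse tissues. They were followed in pineal glands of newborn mice on Affymetrix arrays, with each gene read from its probe set of highest mean over all 6 arrays among the probe sets that the platform annotation assigns to that gene alone. All 33 had such a probe set, out of 18193 genes named on the array. By known biology they comprise 5 genes characteristic of microglia, 7 characteristic of macrophages at the borders of the brain, and 21 shared by the myeloid lineage. The study compared homozygous Neurod1 knockout mice with wildtype mice, both labelled as strain 129 and both at postnatal day 0. Each genotype had 3 pools of 3 glands dissected in the daytime from mice kept in 12 hours of light and 12 of darkness, and each pool, a separate biological sampling, was run on 1 array. Pools are given in the order of their numbers, and pools of the same number share a date in the labels. The deleted stretch of Neurod1 is not described in the labels, nor whether the wildtype mice were littermates, and a pool of whole glands holds pinealocytes together with every other cell of the dissected tissue.

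Microglia and border macrophages are sister populations that arise from myeloid progenitors and depend on the receptor Csf1r. Microglia live within the nervous tissue, while border macrophages line the meninges, the vessels and the choroid plexus and carry scavenger and mannose receptors. The pineal gland is known to hold resident phagocytes of this lineage, and in the newborn gland they lie among dividing precursors and developing pinealocytes.

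The labels were first set against the arrays. Neurod1, a basic helix-loop-helix transcription factor, had signals of 390.2, 524 and 122.5 in the knockout pools, against 9027, 9301 and 7519 in the wildtype pools, a log2 difference of −4.67 (SE 0.45) with a limma adjusted p of 0.0362. Tph1, the tryptophan hydroxylase gene that marks pinealocytes, was present in every pool. It had 12501, 3795 and 2755 in the knockout pools, against 15095, 8881 and 6295.5 in the wildtype pools. It was lower in knockout within each pool number, with a log2 difference of −0.89 (SE 0.57), or −1.54 without knockout pool 1. Knockout pool 1 stood apart. Each gene's log2 level was set against its own 6-array mean, and for 128 genes of ribosomes and respiratory complexes the median was 1.20 in that pool, while it was between −0.68 and 0.10 in the other 5. Of the 12797 genes tested, 32.6% had their highest signal there. Results are therefore also given without it.

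No macrophage or microglia gene differed between the genotypes at a limma adjusted p under 0.05, yet most had a higher mean in knockout. Signals are linear fluorescence values, and differences are knockout minus wildtype on the scale log2(signal + 38.6), which understates the change of dim genes. Of the 33 genes, 29 had a higher and 4 a lower mean in knockout, 87.9% with a higher mean against 53.2% of all genes tested. The median difference over the 33 genes was 0.36, beside 0.028 over all genes tested. A total of 28 genes passed the filter on dim probe sets, which rested on the mean of both groups together. Those 28 had adjusted p values of 0.998 or above, in a comparison in which 0% of the genes were called higher and 0.00781%, Neurod1 alone, lower. At an unadjusted limma p under 0.05, 2 of the 28 were higher, Cd163 and Pf4, which is 7.14% of them against 1.98% of all genes tested, and 0 were lower, against 1.37%. That count of 2 became 0 under median centring, without knockout pool 2 and without both pools numbered 2. With the pool number as a block, Csf1r joined them, which made 3 of 28, or 10.7%, against 3.08% of all genes tested. Every knockout pool lay above every wildtype pool for 3 genes, Pf4, Csf1r and Spi1, which is 10.7% of the 28 against 5.77% of all genes tested. The reverse order, every knockout pool below every wildtype pool, was found for 0 of the 28, against 4.33%. In these bulk samples, more cells of a type and more RNA per cell cannot be told apart.

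**Figure D1:**
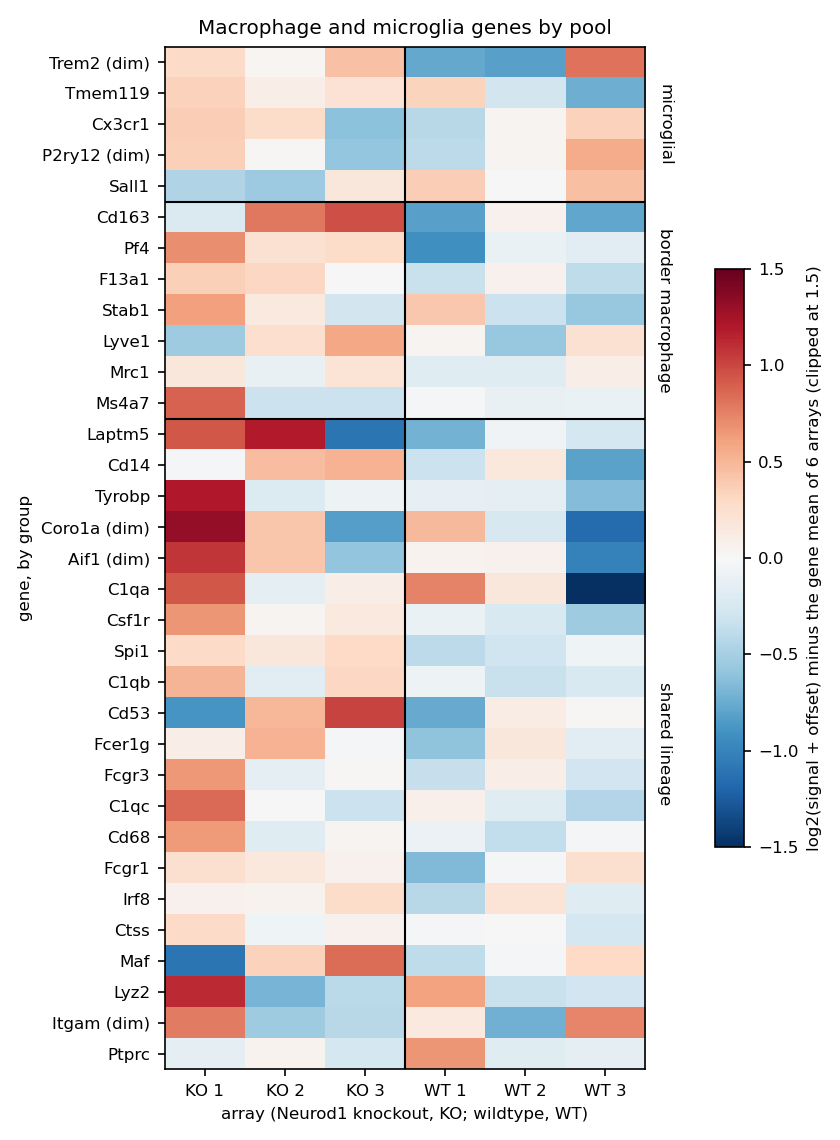
Level of each of the 33 genes (rows, by group) on each array (columns, knockout pools left, wildtype pools right), as log2(signal + offset) minus the gene's mean over 6 arrays, with colours clipped at 1.5; "dim" marks the 5 genes below the filter. Knockout pool 1 had the highest signal for 19 of the 33 genes, while Cd53 and Maf had their lowest signal in it.

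The size of the shift was not the same in the 3 pool numbers. Over the 33 genes the median difference was 0.68, 0.24 and 0.32 within numbers 1, 2 and 3. The ribosomal and respiratory chain genes had 1.19, −0.47 and −0.37 in the same order, so number 1 had the largest value for both, and whether these move together for a shared reason was not tested. Knockout pool 1 held the highest signal of the 6 arrays for 19 of the 33 genes, 57.6% against the 32.6% of all genes tested. Without that pool the median over the 33 genes was 0.26, 26 of 33 had a higher mean in knockout, and the median of all genes tested was −0.017. Within all 3 numbers, 15 genes were higher in knockout, 45.5% of the 33 against 14.9% of all genes tested, and 1 gene, Sall1, was lower.

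**Figure D2:**
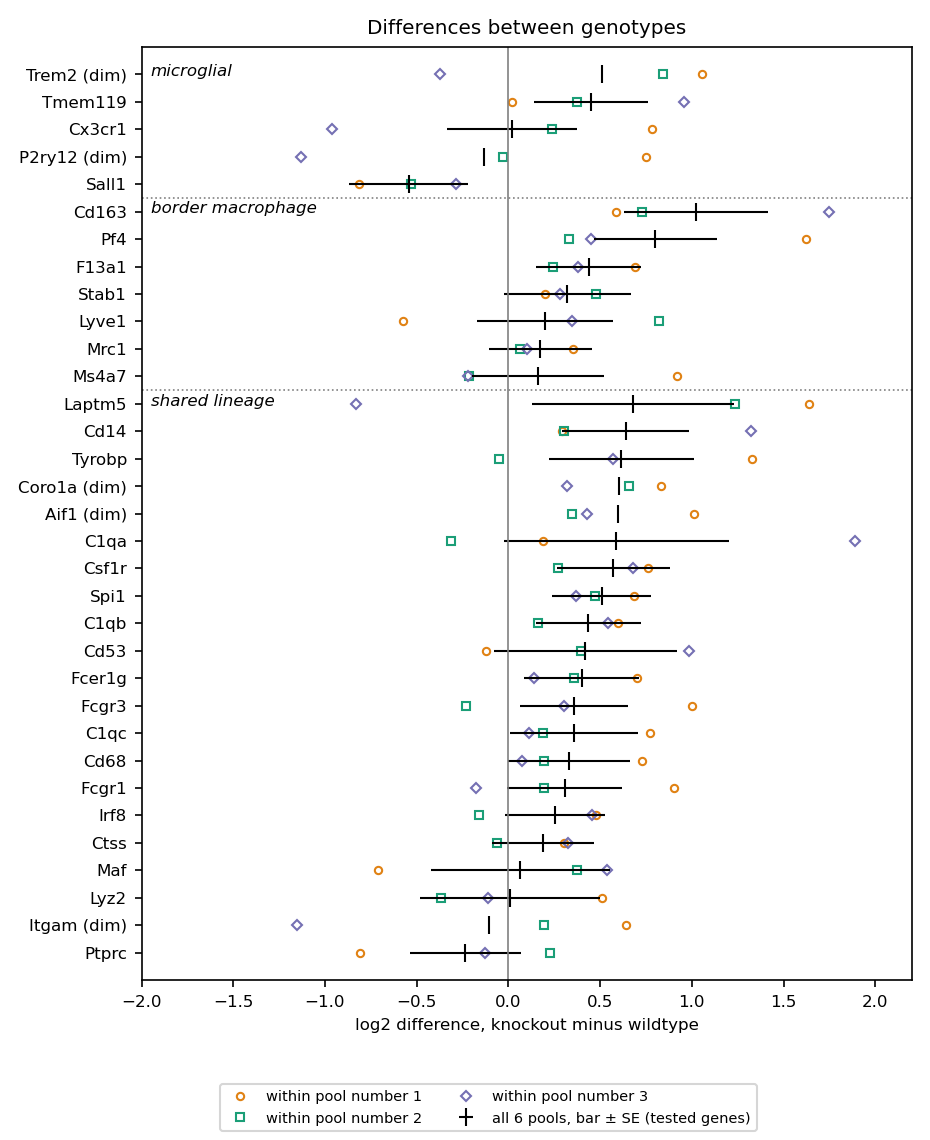
Log2 difference, knockout minus wildtype, for each gene (rows, by group): black ticks give the fit over 6 pools with bars of ± SE for the 28 tested genes, and open symbols the differences within pool numbers 1, 2 and 3. Cd163 had the largest difference at 1.02 and Sall1 the lowest at −0.54, and the symbols of 15 genes all lie right of 0.

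The 7 genes of border macrophages all had a higher mean in knockout, with a median difference of 0.32 and differences between 0.16 and 1.02. All 7 passed the filter, and 5 of them, Mrc1, Cd163, Pf4, F13a1 and Stab1, were higher within every pool number. The group median relative to the 6 arrays was 0.35, 0.22 and 0.20 in the knockout pools, against −0.18, −0.11 and −0.17 in the wildtype pools, so the group's level was above 0 in each knockout pool and below 0 in each wildtype pool. Without knockout pool 1 the median difference was 0.37.

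Cd163, a scavenger receptor of macrophages that takes up haemoglobin bound to haptoglobin (chr6:124304636-124330529, GRCm38.p6), had signals of 639, 1325.5 and 1505 in the knockout pools, against 413, 786 and 421 in the wildtype pools. Knockout pools 2 and 3 were the highest of the 6, while knockout pool 1 was below wildtype pool 2, so the groups overlapped. The means were 1157 ± 457 in knockout and 539.8 ± 213 in wildtype (SD, n = 3 each). Its log2 difference of 1.02 (SE 0.39) was the largest of the 33 genes, with an unadjusted limma p of 0.0287 and an adjusted p of 0.998. Its difference was larger without knockout pool 1, at 1.39. Pf4, platelet factor 4, a chemokine of megakaryocytes that border macrophages also express (chr5:90772435-90773383), had signals of 4662, 3339 and 3463 in the knockout pools, against 1486, 2649.5 and 2522 in the wildtype pools. All 3 knockout pools lay above all 3 wildtype pools, and the gap was widest between the pools numbered 1. Its log2 difference was 0.80 (SE 0.34), with an unadjusted limma p of 0.0406 and an adjusted p of 0.998, and it was 0.65 without knockout pool 1. Within numbers 1, 2 and 3 it was 1.62, 0.33 and 0.45.

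Because Pf4 is shared with platelets, other platelet and megakaryocyte genes were read beside it. Of 12 listed, 10 had a probe set and 8 of these had a higher mean in knockout, with a median difference of 0.41 and none called. Their summed signal ran from 6769.9 to 9405.5 in the knockout pools and from 3762.5 to 6178.5 in the wildtype pools. No marker was at 0, but only 7 of the 10 passed the filter, and a dim signal does not show presence. Most of that sum was 1 gene, Vwf, the von Willebrand factor of platelets and endothelium, which had 5473, 5121 and 7409.5 in the knockout pools, against 4681, 3584 and 2188 in the wildtype pools. Without Vwf, a choice made after seeing the data, the sum was 2305, 1648.5 and 1996 in the knockout pools, against 1497, 1462 and 1575 in the wildtype pools, still without overlap. Ppbp, a chemokine stored in platelet granules, had signals of 511, 308 and 440.4 in the knockout pools, against 203, 260.2 and 249 in the wildtype pools. As for Pf4, every knockout pool exceeded every wildtype pool, with a log2 difference of 0.71 (SE 0.27). The part of platelets in the Pf4 difference was not tested.

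Mrc1, the macrophage mannose receptor (chr2:14229414-14332023), had signals of 2983, 2439 and 3042 in the knockout pools, against 2325, 2331 and 2831 in the wildtype pools. These values lay close together, with wildtype pool 3 above knockout pool 2, and the log2 difference was 0.17 (SE 0.28), or 0.13 without knockout pool 1. The SE exceeded the difference. F13a1, the A chain of coagulation factor XIII made by macrophages and platelets (chr13:36867178-37050244), had 2084, 2025 and 1615 in the knockout pools, against 1278, 1704 and 1234 in the wildtype pools. The groups overlapped only through wildtype pool 2, which exceeded knockout pool 3, and the log2 difference was 0.44 (SE 0.29), or 0.37 without knockout pool 1. Stab1, the scavenger receptor stabilin 1 of macrophages and sinusoidal endothelium (chr14:31139017-31168651), had 703, 501 and 361 in the knockout pools, against 606, 349 and 290.3 in the wildtype pools. Both pools numbered 1 were the highest of their genotype, and the log2 difference of 0.32 (SE 0.35) was 0.095 without knockout pool 1.

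Lyve1, a hyaluronan receptor of border macrophages and lymphatic endothelium (chr7:110850607-110862953), had 833, 1457 and 1843 in the knockout pools, against 1261, 807 and 1439.9 in the wildtype pools. Knockout pool 1 was among the lowest here, next to wildtype pool 2, and the log2 difference of 0.20 (SE 0.37) was 0.51 without it. Leaving out knockout pool 3 instead gave −0.042, and leaving out wildtype pool 2 gave −0.040. The second Lyve1 probe set had 536.9, 590.5 and 610.9 in the knockout pools, against 653.2, 369.8 and 250.1 in the wildtype pools. It overlapped through wildtype pool 1, with a difference of 0.51, and the mean of both sets gave 0.35. Ms4a7, a membrane protein of macrophages outside the brain parenchyma (chr19:11321039-11336146), had 545, 214 and 213.5 in the knockout pools, against 271, 254 and 255 in the wildtype pools. Knockout pool 1 alone was high, the other 2 knockout pools were below all 3 wildtype pools, and the log2 difference of 0.16 (SE 0.36) was −0.24 without that pool. By this probe set the higher mean rested on 1 pool. The second Ms4a7 probe set, dim, had 49.5, 60.2 and 91.8 in the knockout pools, against 27.2, 44.6 and 9.5 in the wildtype pools, with every knockout pool above every wildtype pool and a difference of 0.70, and the mean of both sets gave 0.43.

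**Figure D3:**
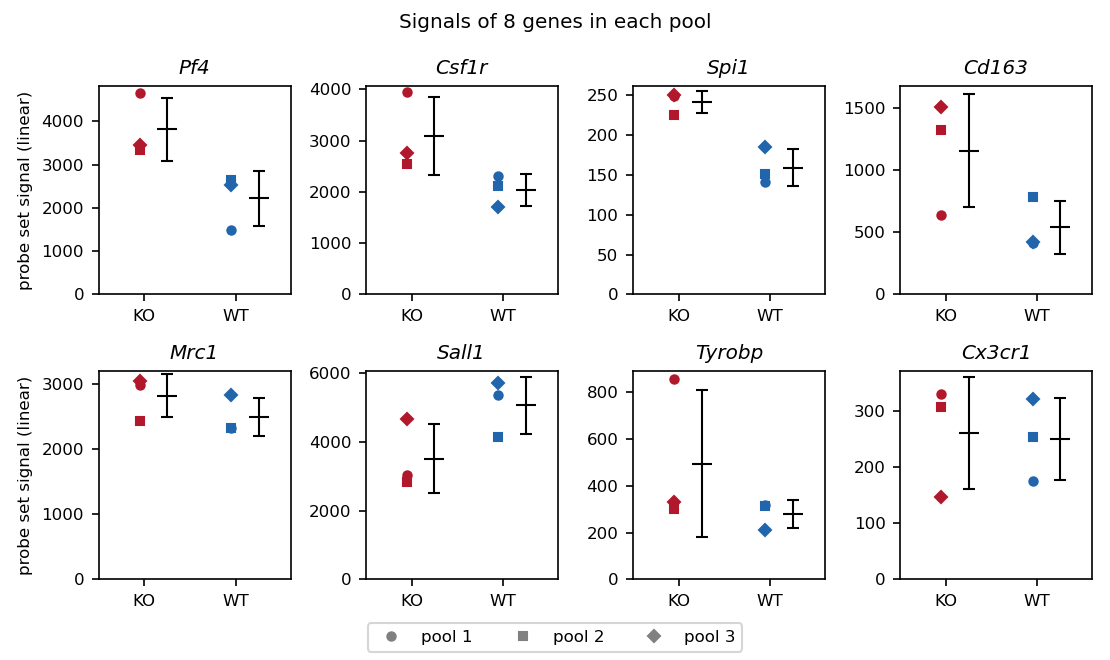
Linear probe set signals of 8 genes in each pool (knockout left and red, wildtype right and blue, with symbols for pool numbers), with the mean and SD of 3 pools beside them in black and axes starting at 0. Pf4, Csf1r and Spi1 do not overlap between the genotypes, while Cd163, Mrc1, Sall1, Tyrobp and Cx3cr1 do.

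The promoters of 3 border macrophage genes are shown because all 7 genes of the group had a higher mean while these members differed in size: Cd163 with the largest difference, Pf4 with no overlap between the genotypes, and Mrc1 with values close together. Each is 300 bases, 250 before to 50 after the start used for that window, from RefSeq's GRCm38.p6, printed 5′ to 3′ along the gene's strand. For Cd163 that start lies slightly inside the gene span given above. Capitals mark GAGGAA or its reverse complement TTCCTC, the core bound by the myeloid factor PU.1 and by other ETS factors.
Cd163 (chr6:124304401-124304700, plus strand): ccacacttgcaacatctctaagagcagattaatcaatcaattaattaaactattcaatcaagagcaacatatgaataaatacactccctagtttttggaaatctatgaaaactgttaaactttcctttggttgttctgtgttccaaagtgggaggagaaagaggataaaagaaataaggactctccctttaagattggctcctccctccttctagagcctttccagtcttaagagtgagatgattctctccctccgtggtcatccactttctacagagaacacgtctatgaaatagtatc
Pf4 (chr5:90772185-90772484, plus strand): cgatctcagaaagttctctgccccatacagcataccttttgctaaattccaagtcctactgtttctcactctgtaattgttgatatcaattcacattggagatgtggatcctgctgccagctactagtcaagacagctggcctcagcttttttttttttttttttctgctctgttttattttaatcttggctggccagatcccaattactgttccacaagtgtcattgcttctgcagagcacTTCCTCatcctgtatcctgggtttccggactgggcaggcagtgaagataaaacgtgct
Mrc1 (chr2:14229164-14229463, plus strand): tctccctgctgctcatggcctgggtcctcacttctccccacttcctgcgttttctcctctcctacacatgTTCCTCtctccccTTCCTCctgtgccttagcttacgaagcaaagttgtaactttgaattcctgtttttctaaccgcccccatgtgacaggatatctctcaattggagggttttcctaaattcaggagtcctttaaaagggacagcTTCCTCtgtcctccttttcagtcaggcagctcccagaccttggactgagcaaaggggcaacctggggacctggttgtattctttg
Mrc1 held 3 matches and Pf4 held 1, which started 8 bases before the Pf4 start, and none lay in the Cd163 window. Windows were given for 25 of the 33 genes and not for Tmem119, Lyve1, Csf1r, C1qa, Tyrobp, Spi1, Cd14 and Maf. On either strand, GAGGAA was in a window of 17 of the 25, 68.0% of them against 31.3% of 27025 genes with a window. The longer GAGGAAGT, which contains it, was in 5 of the 25, namely C1qc, Cd53, Ctss, F13a1 and Pf4, 20% against 3.69%. GGAAGT, which overlaps GAGGAAGT, was in 15 of the 25, 60% against 26.5%, while AGAGGAAGT was in 0 of the 25, against 1.18%, and a still longer spelling that extends it on both sides was in 0 of the 25, against 0.0481%. These are matches of letters, not sites of binding.

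The 5 microglial genes did not share a direction. Their median difference was 0.020, which turned negative without knockout pool 1 (−0.16), under quantile normalization (−0.099) and under median centring (−0.12). The genes with a higher mean in knockout were Tmem119, Cx3cr1 and Trem2, and those with a lower one P2ry12 and Sall1. The group median relative to the 6 arrays was 0.35, 0.029 and 0.17 in the knockout pools, against −0.39, −0.006 and 0.46 in the wildtype pools, so the knockout pools lay above 0, but wildtype pool 3 was the highest of the 6 and the groups overlapped. No test of microglial against border macrophage genes was made, since genes are not replicates of a condition.

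P2ry12, a purine receptor by which microglia sense injury (chr3:59216271-59262985), was below the filter, with signals of 129, 93.9 and 49.4 in the knockout pools, against 61.3, 96.4 and 154 in the wildtype pools. The highest and the lowest pool were both numbered 3, wildtype high and knockout low. Trem2, a lipid-sensing receptor of microglia that signals through Tyrobp (chr17:48346401-48352276), was also below it, with 113.5, 88.2 and 130.2 in the knockout pools, against 34.7, 32.0 and 180.2 in the wildtype pools. The wildtype pools spanned the whole range of the knockout pools, and the differences were −0.14 for P2ry12 and 0.51 for Trem2, with no test. The dimmer Trem2 probe set had 45.8, 33.1 and 32.4 in the knockout pools, against 13.6, 30.5 and 24.9 in the wildtype pools. Every knockout pool was above every wildtype pool, but its mean of 30.05 was below the offset of 38.6, so these values were near the floor. Cx3cr1, the fractalkine receptor (chr9:120048683-120068296), had 329.5, 306 and 146 in the knockout pools, against 175, 254 and 321 in the wildtype pools. Its log2 difference of 0.020 (SE 0.35) took both signs within numbers, 0.79, 0.24 and −0.96 for 1, 2 and 3, and turned negative under quantile normalization (−0.099) and median centring (−0.12). Its second probe set, dim, had 56.5, 7.5 and 7.6 in the knockout pools, against 7.2, 5.6 and 6.3 in the wildtype pools. Knockout pool 1 alone stood out, and all other values were far below the offset of 38.6, too low for their order to be read.

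Tmem119, a membrane protein of microglia that bone-forming cells also express (chr5:113793729-113800396), had 627, 522 and 569.9 in the knockout pools, against 619, 394 and 275 in the wildtype pools. The knockout pools were close to each other and wildtype pool 1 lay among them, with a log2 difference of 0.45 (SE 0.31), or 0.39 without knockout pool 1. Sall1, a zinc finger factor that maintains microglial identity and is also expressed in neural progenitors (chr8:89027242-89044162), had 3032, 2839 and 4663 in the knockout pools, against 5354.5, 4127 and 5696 in the wildtype pools. Knockout pools 1 and 2 were the lowest of the 6 and knockout pool 3 exceeded wildtype pool 2. Its log2 difference of −0.54 (SE 0.32) was the lowest of the 33 genes, with −0.81, −0.53 and −0.29 within numbers 1, 2 and 3. The second Sall1 probe set had 95.8, 52.2 and 123 in the knockout pools, against 248, 212 and 159 in the wildtype pools, with no overlap and a difference of −0.95. Which cells of the gland gave the Sall1 signal was not tested.

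The 21 shared lineage genes had a higher mean in knockout for 19, with a median difference of 0.40, and 0.26 without knockout pool 1. The group median relative to the 6 arrays was 0.64, 0.048 and 0.039 in the knockout pools, against −0.097, −0.049 and −0.27 in the wildtype pools. Knockout pool 1 thus stood high, the other 2 knockout pools lay slightly above 0, and the 3 wildtype pools below it. Of the 21 genes, 13 had their highest signal in knockout pool 1.

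Csf1r, the receptor for the growth factors that keep macrophages and microglia alive (chr18:61105572-61131139), had signals of 3953, 2552 and 2756 in the knockout pools, against 2315, 2106 and 1704 in the wildtype pools. The lowest knockout pool lay above the highest wildtype pool, with means of 3087 ± 757 in knockout and 2041 ± 311 in wildtype (SD, n = 3 each). The log2 difference was 0.57 (SE 0.31), with 0.76, 0.27 and 0.68 within numbers 1, 2 and 3 and 0.38 without knockout pool 1. Its other probe sets had smaller differences of 0.28 and 0.022, and in both the groups overlapped. Spi1, which encodes PU.1, the master transcription factor of the myeloid lineage (chr2:91082374-91115759), had 249, 225.5 and 250.5 in the knockout pools, against 140.4, 152 and 185.5 in the wildtype pools. All 3 knockout pools again lay above all 3 wildtype pools, with means of 242 ± 13.9 in knockout and 159 ± 23.5 in wildtype (SD, n = 3 each) and a log2 difference of 0.51 (SE 0.27). It was 0.68, 0.47 and 0.37 within numbers 1, 2 and 3, and 0.49 without knockout pool 1.

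By their brightest probe sets, the other transcription factors of the list overlapped between the genotypes. Irf8, a factor of monocyte and microglia development that acts with PU.1 (chr8:120736358-120756694), had 284, 280.5 and 333.5 in the knockout pools, against 193, 318 and 233 in the wildtype pools. Wildtype pool 2 lay within the knockout range, and the log2 difference was 0.26 (SE 0.27), or 0.29 without knockout pool 1. Maf, a bZIP factor of tissue macrophages that many other cell types also express (chr8:115703253-115706894), had 8342, 22739 and 31865 in the knockout pools, against 13700.3, 17551 and 21961 in the wildtype pools. Knockout held both the highest and the lowest pool, and the log2 difference of 0.065 (SE 0.49) was 0.63 without knockout pool 1. It turned negative under quantile normalization (−0.035) and median centring (−0.075). Over its 6 probe sets the difference lay between 0.065 and 0.83. One of the dimmer sets had 1527, 1662 and 2433 in the knockout pools, against 1090.0, 1284 and 1076 in the wildtype pools, and another had 372.5, 438.5 and 743 in the knockout pools, against 296, 279 and 349 in the wildtype pools. In both of these every knockout pool was above every wildtype pool, with differences of 0.66 and 0.63.

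The complement subunits C1qa, C1qb and C1qc, which form the recognition molecule of the classical pathway and come mostly from microglia and macrophages in the brain, are neighbours on chromosome 4. In GRCm38.p6 they lie at chr4:136880126-136886200 (C1qb), chr4:136889801-136892936 (C1qc) and chr4:136895916-136898844 (C1qa). C1qb had signals of 1437.5, 877 and 1242 in the knockout pools, against 937, 779 and 841 in the wildtype pools. Knockout pool 2 was below wildtype pool 1, so the groups overlapped, and the log2 difference of 0.43 (SE 0.29) was 0.28 without knockout pool 1. The other C1qb probe sets had differences of 0.43 and 0.39, and in the second of these every knockout pool was above every wildtype pool. C1qc had 539, 285 and 218 in the knockout pools, against 299.9, 245 and 198.5 in the wildtype pools. Only knockout pool 1 stood above the rest, and the log2 difference of 0.36 (SE 0.35) was 0.023 without it. C1qa had 472, 202 and 246 in the knockout pools, against 409.8, 260.3 and 38.2 in the wildtype pools. Wildtype pool 3 was far below the other 5, the SE was the highest of the list, and the log2 difference of 0.59 (SE 0.61) was −0.16 without that pool and 0.27 without knockout pool 1.

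The promoters of C1qb and C1qc are shown because the genes lie side by side and encode chains of the same protein. Source, length and capitals are as for Cd163, and both genes lie on the minus strand.
C1qb (chr4:136886151-136886450, minus strand): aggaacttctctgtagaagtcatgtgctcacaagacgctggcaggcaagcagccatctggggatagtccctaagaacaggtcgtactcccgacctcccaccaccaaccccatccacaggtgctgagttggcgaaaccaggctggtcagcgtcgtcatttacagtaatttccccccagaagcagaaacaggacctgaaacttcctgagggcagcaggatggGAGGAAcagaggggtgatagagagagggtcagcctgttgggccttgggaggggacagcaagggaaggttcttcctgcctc
C1qc (chr4:136892865-136893164, minus strand): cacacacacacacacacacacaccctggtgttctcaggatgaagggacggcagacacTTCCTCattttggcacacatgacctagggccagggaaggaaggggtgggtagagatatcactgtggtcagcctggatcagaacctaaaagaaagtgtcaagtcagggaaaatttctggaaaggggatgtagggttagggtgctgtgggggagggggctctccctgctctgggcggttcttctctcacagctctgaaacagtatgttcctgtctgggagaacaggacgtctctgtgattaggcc
Each held 1 match to GAGGAA on either strand. It started 30 bases before the C1qb start and 193 bases before the start used for the C1qc window. That start lies slightly inside the C1qc span given above.

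Fc receptors and the adaptors that carry their signal had higher means in knockout, and by their brightest probe sets all 4 genes overlapped between the genotypes. Tyrobp, the adaptor DAP12 through which Trem2 signals (chr7:30413782-30417582), had 858, 299 and 329.7 in the knockout pools, against 318.5, 312 and 209 in the wildtype pools. Knockout pool 1 stood far above the other 5 pools, and the log2 difference of 0.62 (SE 0.40) was 0.17 without it. Fcer1g, the common gamma chain of Fc receptors (chr1:171229572-171234349), had 237, 331 and 213 in the knockout pools, against 131, 249.9 and 190.1 in the wildtype pools. Wildtype pool 2 exceeded knockout pools 1 and 3, and the log2 difference was 0.40 (SE 0.31), or 0.45 without knockout pool 1. Fcgr3, a low-affinity IgG receptor (chr1:171051169-171065915), had 734, 409.6 and 457 in the knockout pools, against 348, 488 and 362 in the wildtype pools. Wildtype pool 2 was higher than knockout pools 2 and 3, and the log2 difference of 0.36 (SE 0.29) was 0.12 without knockout pool 1 and 0.037 without both pools numbered 1. Fcgr1, the high-affinity IgG receptor (chr3:96282909-96293969), had 250.2, 235 and 216.5 in the knockout pools, against 116, 201 and 249.9 in the wildtype pools. Knockout values were close together, while wildtype pool 1 was far below them and wildtype pool 3 level with the highest, with a log2 difference of 0.31 (SE 0.32), or 0.26 without knockout pool 1. The second Fcgr1 probe set gave 0.58, with every knockout pool above every wildtype pool.

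The degradative proteins Ctss, Cd68 and Lyz2 overlapped between the genotypes. Ctss, the protease cathepsin S (chr3:95526786-95556405), had 2717, 2129 and 2316 in the knockout pools, against 2194, 2227 and 1839 in the wildtype pools. Knockout pool 1 was the highest and wildtype pool 3 the lowest, with the rest close together, and the log2 difference of 0.19 (SE 0.28) was 0.093 without knockout pool 1. Cd68, a lysosomal membrane glycoprotein (chr11:69664213-69666170), had 269, 136 and 165 in the knockout pools, against 148, 114 and 155 in the wildtype pools. Knockout pool 1 alone was above the rest, and the log2 difference of 0.33 (SE 0.33) was 0.096 without it. Lyz2, the lysozyme of macrophages and neutrophils (chr10:117277541-117282272), had 1682, 450.4 and 561.5 in the knockout pools, against 1170.4, 592 and 611 in the wildtype pools. Both pools numbered 1 were high, and the log2 difference of 0.0095 (SE 0.49) was −0.55 without knockout pool 1 and −0.13 under median centring.

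Among surface and membrane proteins of leukocytes, Cd14, a co-receptor for bacterial lipopolysaccharide (chr18:36725064-36726815), had 181, 272 and 284 in the knockout pools, against 141, 213 and 90.6 in the wildtype pools. Wildtype pool 2 was above knockout pool 1, and the log2 difference was 0.64 (SE 0.35), or 0.81 without knockout pool 1. Laptm5, a lysosomal transmembrane protein of blood cells (chr4:130912890-130936148), had 1105, 1324 and 241.5 in the knockout pools, against 329, 541 and 459 in the wildtype pools. Knockout held the 2 highest pools and the lowest, with a log2 difference of 0.68 (SE 0.55). Leaving out 1 knockout pool at a time, it was 0.38 on omission of pool 1, 0.26 on omission of pool 2 and 1.40 on omission of pool 3. Its 5 probe sets ran from 0.0074 to 0.68. Cd53, a tetraspanin of leukocytes (chr3:106758861-106790149), had 2075, 5477 and 7789.7 in the knockout pools, against 2263, 4151 and 3912 in the wildtype pools. Both pools numbered 1 were low, and the log2 difference of 0.42 (SE 0.50) became 0.97 on leaving out knockout pool 1 but 0.021 on leaving out knockout pool 3.

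Ptprc, the pan-leukocyte phosphatase CD45 (chr1:138062859-138175756), had 266, 308.5 and 242 in the knockout pools, against 493.5, 258 and 267 in the wildtype pools. Wildtype pool 1 was the highest and the other 5 were alike, which gave a log2 difference of −0.24 (SE 0.30), or 0.038 without that wildtype pool. The remaining shared genes were below the filter and were not tested. Aif1, the calcium-binding protein Iba1 that is used to stain microglia (chr17:35170986-35176083), had 240.6, 139.5 and 49.8 in the knockout pools, against 99.9, 101.2 and 27.2 in the wildtype pools. Coro1a, an actin regulator of leukocytes (chr7:126699774-126704816), had 262, 122 and 29.3 in the knockout pools, against 130.5, 63.4 and 15.8 in the wildtype pools. In both, each knockout pool was above the wildtype pool of its number, with a difference of 0.60 for each gene, but the genotypes overlapped. Without knockout pool 1 the difference was 0.21 for Aif1 and 0.094 for Coro1a. Itgam, the integrin CD11b (chr7:128062640-128118491), had 81.1, 9.5 and 13.6 in the knockout pools, against 38.3, 3.4 and 77.3 in the wildtype pools, with no order between the genotypes and a difference of −0.11, or −0.52 without knockout pool 1.

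Probe sets of 1 gene mostly pointed the same way. Of 14 genes with more than 1 probe set, 13 had the same direction in each of them, the exception being Coro1a, whose dimmest probe set had a difference of −0.066 against 0.60 for the brightest. Over all 57 probe sets of the 33 genes, 50 had a higher mean in knockout. These include sets below the filter, and sets of the same gene are not independent readings. The share over all probe sets of the array was not computed.

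Further genes of the same cells, listed from general knowledge, were read beside the 33. None of them passed the test in either direction. The counts and medians below include genes under the filter. Of all genes tested, 53.2% had a higher mean, with a median difference of 0.028. Of 14 further microglia genes, 13 had a probe set, and 8 of these had a higher mean in knockout (median difference 0.14). Of 18 further border macrophage genes, 17 had a probe set and 14 a higher mean (median 0.18). Genes of immunoreceptor signalling had a higher mean for 10 of 19 (median 0.19), other Fc receptors for 5 of 5 (0.22), and complement and antigen presentation for 8 of 14 (0.10). C3ar1, the receptor for a fragment of complement C3, had 706, 1602 and 1781 in the knockout pools, against 600.3, 855 and 983 in the wildtype pools, with overlap through knockout pool 1. Lysosome and phagocytosis genes had a higher mean for 14 of 19 (0.11), myeloid transcription factors for 8 of 14 (0.16), and genes of activated microglia for 11 of 14 (0.18). Ligands and growth factors of the lineage had a higher mean for 12 of 16 (0.16, and 0.017 without knockout pool 1). Cxcl12, a chemokine that guides leukocytes and precursors, had 9056, 6506 and 7867 in the knockout pools, against 9527, 7237 and 5069 in the wildtype pools, with full overlap.

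Markers of other blood cells and of cells that share genes with the list were also read, with none called in either direction. Counts and medians again include genes below the filter, and 53.2% of all genes tested had a higher mean. Mast cell markers had a higher mean in knockout for 10 of 12 (median difference 0.37), and their summed signal ran from 8580.4 to 9387 in the knockout pools and from 5378 to 6412 in the wildtype pools. Cpa3, a mast cell carboxypeptidase, had 3110.2, 3016 and 3518.5 in the knockout pools, against 1791, 1951 and 2073 in the wildtype pools, with all knockout pools above all wildtype pools and a log2 difference of 0.72 (SE 0.27). Monocyte and neutrophil markers, which share Lyz2, Itgam and Cd14 expression with the list, had a higher mean for 9 of 16 (median 0.15). Only 7 of these 16 passed the filter, with a median of 0.047. The summed signal of all 16 ran from 2248 to 4456 in the knockout pools and from 2225 to 2923 in the wildtype pools. Lymphocyte markers, which share Ptprc, Coro1a and Cd53 expression, had a higher mean for 12 of 17 (0.13). Only 5 of these 17 passed the filter, with a median of 0.026. The summed signal of all 17 ran from 1490.2 to 2597.5 in the knockout pools and from 1143 to 2022 in the wildtype pools. Endothelial and lymphatic markers, which share Lyve1 and Stab1, had a higher mean for 12 of 15 (0.19), with a summed signal from 13757 to 24042 in the knockout pools and from 14231 to 21514 in the wildtype pools. Fibroblast markers, as a sign of meninges in the dissected tissue, had a higher mean for 9 of 10 (0.33), with a summed signal from 118380 to 141720 in the knockout pools and from 94638 to 103210 in the wildtype pools. The sums of the mast cell and fibroblast markers, like those of the platelet markers, were thus higher in every knockout pool than in every wildtype pool, as were those of the 7 border macrophage genes, which ran from 11300 to 12449 in the knockout pools and from 7639.5 to 8994 in the wildtype pools. The brightest gene of each list was then left out, also a choice made after seeing the data. The sums still did not overlap for the mast cell markers without Cpa3, the fibroblast markers without Col1a2 and the border macrophage genes without Pf4. Shared lineage genes overlapped with Maf but not without it, at 17892, 16065 and 17955 in the knockout pools, against 12216, 13374 and 11666 in the wildtype pools. Complement and antigen presentation genes likewise overlapped with B2m but not without it. Apart from the platelet markers, all other lists overlapped without their brightest gene. No marker of the other cell types was at 0, but some had mean signals below the offset of 38.6, too low to be read. A signal above 0 therefore does not show that a cell type was present. The part of these cell types in the values of the 33 genes was not tested.

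Choroid plexus markers, read as a sign of neighbouring tissue in a pool, had a higher mean for 6 of 8. Their summed signal ran from 13192 to 104530 in the knockout pools and from 16078 to 90472 in the wildtype pools. This list includes Otx2, which is also counted among the pinealocyte markers. Otx2 had 10194 in knockout pool 3 and 12786 in wildtype pool 1, most of the lowest sum of each genotype. Ttr, the transthyretin gene of choroid plexus, had 87464, 58636.5 and 685 in the knockout pools, against 898, 38903 and 60484 in the wildtype pools. The low pools were knockout pool 3 and wildtype pool 1. Among the border macrophage genes, Pf4, Cd163 and Mrc1 had their lowest signal of the 6 arrays in wildtype pool 1, while in knockout pool 3 Cd163, Lyve1 and Mrc1 had their highest and Ms4a7 its lowest. The part of choroid plexus in these values was not tested. Red cell markers had a higher mean in knockout for 3 of 7, with a summed signal from 894 to 1907 in the knockout pools and from 1352 to 1632 in the wildtype pools. Pinealocyte markers had a higher mean for 2 of 10 (median −0.42), and since array signals are relative, a lower share of pinealocyte RNA and a higher share of macrophage RNA cannot be told apart.

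**Figure D4:**
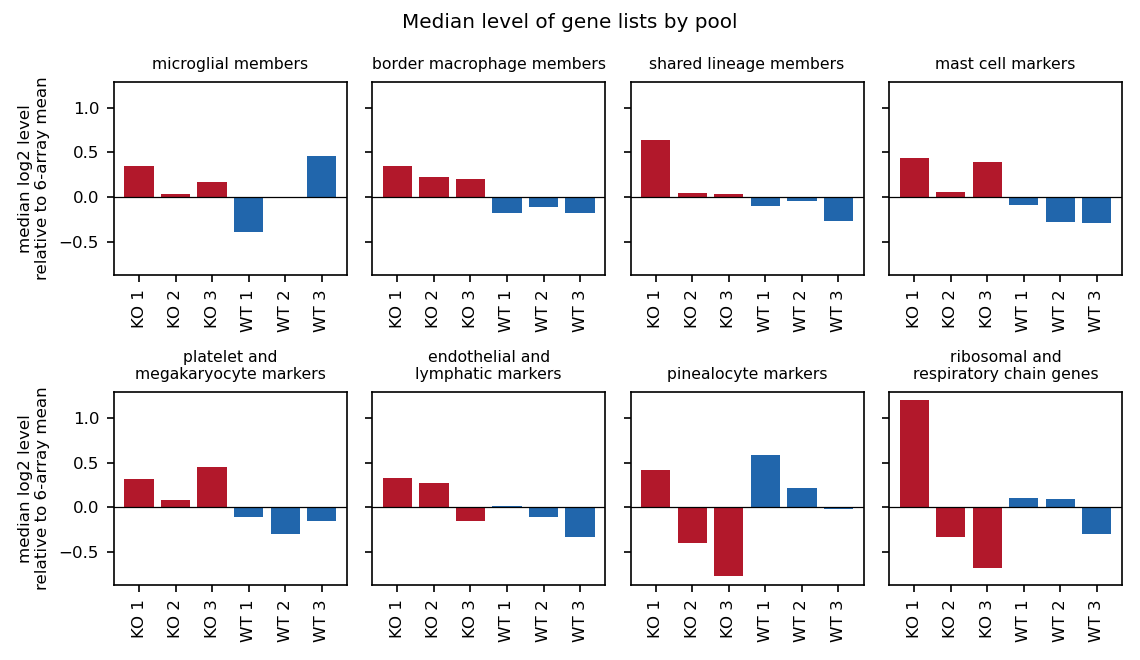
Median log2 level of 8 gene lists in each pool relative to the mean of the 6 arrays (bars from 0, knockout pools left and red, wildtype pools right and blue). Border macrophage, shared lineage, mast cell and platelet lists lie above 0 in each knockout pool and below 0 in each wildtype pool. For shared lineage genes and for ribosomal and respiratory chain genes, knockout pool 1 is far above the other pools.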

How the data were processed

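Values were the deposited probe set signals, a linear fluorescence intensity for 45037 probe sets on 6 arrays. The submitters' processing notes name GCOS; version and algorithm are not given in the sources used here. Deposited intensities had 2% trimmed means of 499.54 to 499.96, so arrays had been scaled to 500 by the authors; array medians ran from 132 to 184. RNA was amplified once before labelling, per the labels' protocols. Detection calls were not used here.

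No further normalization was applied. An offset of 38.6, the 20th percentile of all values, was added before log2. Of the probe sets, 34945 named 1 gene, 932 several and 9160 none (platform annotation); coordinates came from RefSeq's GRCm38.p6, in which 33 of 33 symbols matched. Probe sets whose mean log2 level was in the lowest 40% (under 105) were left out, and each gene was read from its probe set of highest mean, leaving 12797 genes. Genotypes were compared with limma 3.58.1 in R 4.3.3 (lmFit, eBayes with trend, 4 residual degrees of freedom, two-sided, Benjamini-Hochberg over all genes tested, threshold 0.05), and the code was checked on simulated data. Exact permutation of 3 pools against 3 gives no p below 0.1 and was not run. Precision is limited by having 6 arrays: the SE of a tested member lay between 0.27 and 0.61.

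Same-numbered pools share a date in the labels, and across genes their departures from the genotype means had correlations of 0.32, 0.25 and 0.36 in numbers 1, 2 and 3, so the number was a block in an alternative fit. Other alternatives changed the offset, normalization, filter, probe sets, variance model, array weights and the pools used. The members, lists and motifs were chosen with earlier results of these data known. Every member is named, with at most 2 genes of highest mean from each further list.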

Additional observations from a re-analysis of the deposited data

How the results depend on the processing

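Each result was recomputed under 20 alternatives. The median over the 33 genes stayed positive in all of them, between 0.21 with array weights and 0.42 without both pools numbered 2, and the shared lineage median between 0.20 and 0.48. The border macrophage median lay between 0.18 and 0.54, the highest being without knockout pool 3. Median centring moved the median of all genes tested from 0.028 to −0.11 and that of the 33 genes to 0.22. The microglial median took both signs, from −0.36 without both pools numbered 1 to 0.36 without both numbered 3. No member was called under any alternative except array weights. That fit gave weights of 6.2 and 7.05 to knockout and wildtype pool 2 and at most 0.541 to the rest. It called 1512 higher and 1420 lower genes of the 12797 tested. Of the 28 members tested, 4 were called higher (Cd163, Lyve1, Laptm5 and Spi1) and 1 lower (Sall1). Calls were thus widespread in that fit and not confined to the members. With the number as a replicate block no call changed: the lowest adjusted p of a member was 0.768, and Neurod1 had 0.0158. In that fit 3 members had an unadjusted p under 0.05, 10.7% of the 28 against 3.08% of all genes tested. Members higher at an unadjusted limma p under 0.05 numbered 0 under median centring, without knockout pool 2 and without both pools numbered 2. In those fits 395, 321 and 123 of the 12797 genes tested had such a p in either direction. With array weights 8 members were higher at such a p, while 4969 of the 12797 genes had one in either direction. The member counts take the higher direction only and those of all genes both, so they are not directly comparable. The replicate block without both pools numbered 1 called 8 higher and 10 lower genes, none of them members, and gave differences of −0.36 for Cx3cr1, −0.22 for Ms4a7, 0.051 for Ptprc and −0.24 for Lyz2, as without the block.

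The 1 lower gene, Neurod1, was no longer called with no offset (−4.87, 0 genes), quantile normalization (−4.76, 0 genes), or without both pools numbered 1, 2 or 3 (−4.80, −4.98 and −4.23, 0 genes each). With 1 pool left out its difference lay between −5.04 and −4.13, and 0 to 1 genes were called lower, 0 without knockout pool 1 or any wildtype pool. The cause of these was not tested.

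The direction held in all alternatives for 21 of the 33 genes, 20 of them higher. With 1 pool left out, the difference ran from −0.37 to 0.12 for P2ry12, −0.18 to 0.34 for Cx3cr1, −0.042 to 0.51 for Lyve1, −0.24 to 0.36 for Ms4a7, −0.38 to 0.038 for Ptprc, −0.16 to 1.11 for C1qa, −0.52 to 0.24 for Itgam, −0.55 to 0.36 for Lyz2 and −0.34 to 0.63 for Maf. Array weights turned Ms4a7 (−0.18), Ptprc (0.14), C1qa (−0.19), Itgam (0.10), Lyz2 (−0.36), Ctss (−0.029), Fcgr3 (−0.15) and Irf8 (−0.081). Quantile normalization turned Cx3cr1 (−0.099) and Maf (−0.035), median centring Cx3cr1 (−0.12), Lyz2 (−0.13) and Maf (−0.075), and no offset Itgam (0.019). Without both pools numbered 1, the sign turned for Cx3cr1 (−0.36), Ms4a7 (−0.22), Ptprc (0.051) and Lyz2 (−0.24). Without those numbered 2 it turned for Cx3cr1 (−0.088), Lyve1 (−0.11) and Maf (−0.088), and without those numbered 3 for P2ry12 (0.36), C1qa (−0.064), Itgam (0.42) and Maf (−0.17).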

Other observations

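The members did not all follow the same pools. Most shared lineage genes peaked in knockout pool 1, while Cd53, Maf, Cd14, Cd163 and Lyve1 had lower signals there than in knockout pools 2 and 3. Mef2c, a transcription factor of microglia, neurons and muscle, had 2503, 8672 and 8762.5 in the knockout pools, against 3414, 6252 and 4327 in the wildtype pools, with the same low pools numbered 1 as Cd53. Ednrb, an endothelin receptor expressed by glia and melanocytes among others, had 6728, 22439.5 and 24771.5 in the knockout pools, against 10948.5, 24407 and 24571.5 in the wildtype pools. Igf1, a growth factor made by macrophages and other cells, had 11440, 20388 and 25236 in the knockout pools, against 11239.6, 21052 and 18303 in the wildtype pools. In these 3 genes too the lowest signals were the pools numbered 1 of both genotypes, which share a date in the labels. Fcgr2b, the inhibitory IgG receptor, had 1117, 858 and 224 in the knockout pools, against 596, 773 and 451.5 in the wildtype pools, with its highest and lowest signals both in knockout.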
